A study of Arabidopsis thaliana with 12 samples.

Results

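SLIM1 (AT1G73730, also named EIL3), EIN3 (AT3G20770) and EIL1 (AT2G27050) are related transcription factors of Arabidopsis thaliana, and EBF1 (AT2G25490) and EBF2 (AT5G25350) are F-box proteins that act on EIN3 and EIL1. These 5 genes were taken by locus from a deposited table of 32833 loci, and all 5 were among the 19127 loci that reached a mean of 1 TPM and were tested. TPM, transcripts per 1000000, is a read count divided by transcript length and scaled to the library, so TPM levels of different genes can be set side by side. The study compared shoots of cdk8-1 seedlings, a mutant of the Mediator kinase CDK8 that the labels name by its allele alone, with shoots of Columbia-0 (Col-0), the wild type. Seedlings of both genotypes were cut after 10 days on washed-agar plates that held either no magnesium sulfate, with magnesium chloride in its place, or 1.5 mM magnesium sulfate. There were 3 libraries in each of 4 groups, namely cdk8-1 without sulfate, cdk8-1 with sulfate, Col-0 without sulfate and Col-0 with sulfate. The labels are silent on whether the 3 libraries of a group are separate cultures; p-values then reflect only how far these libraries scattered, which may be technical.

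Sulfate is the form in which plant roots take up sulfur, and SLIM1 is the regulator known from mutant screens to be needed for many transcript responses to sulfur deficiency. EIN3 and EIL1 are the main transcription factors of the ethylene pathway. Ethylene binds receptors that, without the hormone, keep the kinase CTR1 active and the membrane protein EIN2 inactive, while EBF1 and EBF2 bind EIN3 and EIL1 and hand them to an SCF ubiquitin ligase for degradation. Much of the control of EIN3 and EIL1 is thus on the protein, which was not measured here: all values below are transcript levels.

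The regulators lie on 4 chromosomes. In the RefSeq annotation of TAIR10.1, SLIM1 is at chr1:27730031-27732683 and EIN3 at chr3:7260429-7263384, both on the minus strand. EIL1 is at chr2:11545656-11548293 on the plus strand. EBF1 is at chr2:10847375-10850797 and EBF2 at chr5:8794252-8797349, both on the minus strand. The files name no build, but exon lengths of this annotation turned the TPM of 99.4% of matched loci into whole reads in all 12 libraries, to within 0.01 read. In proteins translated from the RefSeq coding sequence, EIN3 (628 residues) and EIL1 (584 residues) shared 77.8% of aligned residues, and SLIM1 (567 residues) shared 48.4% with EIN3 and 46.1% with EIL1. EBF1 (628 residues) and EBF2 (623 residues) shared 59.3%.

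The longest stretch that EIN3 and EIL1 transcripts share without a difference is shown because reads inside it cannot be told apart. It is 68 bases long, lies in the coding sequence at chr3:7262236-7262303 (minus strand) for EIN3 and chr2:11546602-11546669 (plus strand) for EIL1, and reads 5′ to 3′:
EIN3 and EIL1: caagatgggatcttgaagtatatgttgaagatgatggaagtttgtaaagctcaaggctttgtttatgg
The longest identical run was 30 bases between SLIM1 and EIN3, 22 bases between SLIM1 and EIL1 and 23 bases between EBF1 and EBF2. These runs cover a small stretch of the 2363 to 3052 exon bases of the regulators, whose libraries held from 303 reads (SLIM1) to 7573 reads (EIN3).

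Of the 5 regulators, SLIM1, EIL1 and EBF2 passed the test for a difference between the genotypes' responses to sulfate withdrawal. The EBF2 call was lost in some fits with a single library left out. The 250 bases before the annotated starts of the called genes are therefore shown, each 5′ to 3′ on the strand of its gene. On TAIR10.1 they lie at chr1:27732684-27732933 (minus) for SLIM1, chr2:11545406-11545655 (plus) for EIL1 and chr5:8797350-8797599 (minus) for EBF2.
SLIM1: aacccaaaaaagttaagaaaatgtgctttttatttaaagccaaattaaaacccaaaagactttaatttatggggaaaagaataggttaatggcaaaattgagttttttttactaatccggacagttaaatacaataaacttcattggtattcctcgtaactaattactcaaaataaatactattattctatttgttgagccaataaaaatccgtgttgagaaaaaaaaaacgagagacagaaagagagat
EIL1: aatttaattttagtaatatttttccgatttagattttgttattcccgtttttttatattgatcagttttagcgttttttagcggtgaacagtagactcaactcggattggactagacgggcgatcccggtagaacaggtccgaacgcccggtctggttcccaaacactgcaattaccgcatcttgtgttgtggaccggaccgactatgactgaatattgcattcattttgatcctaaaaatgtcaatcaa
EBF2: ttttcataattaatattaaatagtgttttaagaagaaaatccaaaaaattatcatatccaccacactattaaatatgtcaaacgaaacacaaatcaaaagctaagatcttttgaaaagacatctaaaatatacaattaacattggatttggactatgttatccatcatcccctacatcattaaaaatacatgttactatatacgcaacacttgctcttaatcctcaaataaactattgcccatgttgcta
No letters are in capitals because none of the 5 windows held a match to the binding motif described for EIN3-type factors, searched on both strands as ATGAATCT, ATGAACCT, ATGTATCT, ATGTACCT, ACGAATCT, ACGAACCT, ACGTATCT and ACGTACCT. Of 27443 protein-coding genes, 1628 (5.9%) held one of these spellings in the same window. An absent match says only that these letters are not in these 250 bases.

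The libraries held 17441215 to 25175871 reads in genes, recovered from the TPM values. CDK8 had 5.19, 5.20 and 6.09 TPM in cdk8-1 without sulfate, against 33.3, 33.7 and 32.8 TPM in Col-0 without sulfate (log2 difference -2.40, limma adjusted p = 5.73e-08). It had 2.96, 4.01 and 4.99 TPM in cdk8-1 with sulfate, against 21.0, 23.1 and 24.4 TPM in Col-0 with sulfate (-2.27, limma adjusted p = 1.53e-06). Among the libraries with sulfate, the one numbered 1 of each genotype stood apart in transcripts of sulfur deficiency. LSU1, a transcript that accumulates under sulfur deficiency, had 24.4 TPM in that library of cdk8-1 and 35.7 TPM in that of Col-0, against 3.22 to 6.46 TPM in the other 4. Leaving both out kept every call on the 5 regulators, and these values are given in the closing section.

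Under sulfate withdrawal the median tested gene rose on the TPM scale, by a log2 difference of 0.45 in cdk8-1 and 0.46 in Col-0. Photosynthesis transcripts took a much smaller share of the libraries without sulfate. The summed level of 4 shoot markers (RBCS1A, LHCB1.3, LHCB2.1 and CA1) was 9219 to 12040 TPM in cdk8-1 without sulfate, against 53450 to 56260 TPM in cdk8-1 with sulfate. In Col-0 the sum was 3546 to 3708 TPM without sulfate, against 53930 to 56700 TPM with sulfate. The sulfate differences of SLIM1, EIN3, EIL1 and EBF2 are therefore also given relative to the median gene. Levels of EBF1 and EBF2 are also given after median-of-ratios scaling, which put that median at 0.03 in both genotypes. All 4 shoot markers passed the test as lower without sulfate in both genotypes, and as higher in cdk8-1 than in Col-0 without sulfate; their part in the values below was not tested. In these bulk shoots, fewer cells of a type and less RNA per cell cannot be told apart. The summed level of 9 root markers was 7.08 to 31.4 TPM in cdk8-1 without sulfate, 2.57 to 12.6 TPM in cdk8-1 with sulfate, 3.34 to 6.77 TPM in Col-0 without sulfate and 2.41 to 10.1 TPM in Col-0 with sulfate. None of the 4 root markers tested passed the test in any comparison.

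SLIM1 transcript rose without sulfate in both genotypes, and rose less in cdk8-1. It had 25.6, 29.8 and 28.7 TPM in cdk8-1 without sulfate, against 12.7, 13.4 and 11.5 TPM in cdk8-1 with sulfate. In Col-0 it had 35.4, 34.3 and 35.8 TPM without sulfate, against 11.1, 10.4 and 12.2 TPM with sulfate. No library with sulfate reached any library without it. The ratio of mean TPM was 2.23 in cdk8-1 and 3.13 in Col-0. On the log2(TPM + 1) scale the difference was 1.10 ± 0.09 (SE) in cdk8-1 (limma adjusted p = 7.91e-08), which is 0.65 above the median gene. It was 1.57 ± 0.09 in Col-0 (adjusted p = 1.73e-09), 1.11 above the median gene. The cdk8-1 response minus the Col-0 response was -0.47 (95% interval -0.73 to -0.21, adjusted p = 0.0119), and it was -0.46 after median-of-ratios scaling.

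Between genotypes, SLIM1 was lower in cdk8-1 among the libraries without sulfate. There its mean was 28.0 ± 2.2 TPM in cdk8-1 and 35.2 ± 0.80 TPM in Col-0 (SD, n = 3 each), with no overlap between the groups and a log2 difference of -0.32 (limma adjusted p = 0.00909). With sulfate the mean was 12.6 ± 0.97 TPM in cdk8-1 and 11.2 ± 0.91 TPM in Col-0, and the groups overlapped. That log2 difference of 0.15 did not pass the test (95% interval -0.04 to 0.33, limma adjusted p = 0.271).

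EIN3 had the highest level of the 5 in every library. It had 219, 244 and 239 TPM in cdk8-1 without sulfate, against 127, 130 and 145 TPM in cdk8-1 with sulfate. In Col-0 it had 213, 219 and 213 TPM without sulfate, against 101, 117 and 123 TPM with sulfate. Libraries with and without sulfate did not overlap in either genotype. The ratio of mean TPM was 1.75 in cdk8-1 (log2 difference 0.80 ± 0.08 SE, limma adjusted p = 6.27e-07) and 1.89 in Col-0 (0.92 ± 0.08, adjusted p = 1.24e-07). Relative to the median gene these rises were 0.36 in cdk8-1 and 0.46 in Col-0. The difference between the 2 responses, -0.12, did not pass the test (95% interval -0.35 to 0.12, limma adjusted p = 0.462).

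Between genotypes EIN3 did not pass the test with either supply. Without sulfate the log2 difference of cdk8-1 from Col-0 was 0.12 (95% interval -0.05 to 0.29, limma adjusted p = 0.233). With sulfate EIN3 averaged 134 ± 9.5 TPM in cdk8-1 and 114 ± 12 TPM in Col-0 (SD, n = 3 each). As deposited, the lowest cdk8-1 library stood above the highest Col-0 library. After median-of-ratios scaling these groups overlapped, at 142.5 to 164.5 in cdk8-1 and 122.9 to 147.1 in Col-0. The log2 difference with sulfate, 0.24 as deposited, had a limma adjusted p of 0.059. It became 0.0332 (difference 0.30) when Col-0 library 3 with sulfate was left out.

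EIL1, the close relative of EIN3, moved the other way. It had 64.3, 74.2 and 68.1 TPM in cdk8-1 without sulfate, against 87.0, 84.2 and 79.4 TPM in cdk8-1 with sulfate. In Col-0 it had 39.2, 43.2 and 42.3 TPM without sulfate, against 78.9, 83.5 and 78.2 TPM with sulfate. All libraries without sulfate were below all libraries with it, and the 3 Col-0 libraries without sulfate were the lowest of the 12. The ratio of mean TPM was 0.825 in cdk8-1 and 0.518 in Col-0. The log2 difference was -0.28 ± 0.07 (SE) in cdk8-1 (limma adjusted p = 0.0018) and -0.93 ± 0.07 in Col-0 (adjusted p = 2.41e-08). Because the median gene rose, these were -0.72 in cdk8-1 and -1.39 in Col-0 relative to it, and 25.3% of tested genes in cdk8-1 and 18.3% in Col-0 had a lower log2 difference.

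Of the 5, EIL1 had the smallest p for a difference between the genotypes' responses. The cdk8-1 response minus the Col-0 response was 0.66 ± 0.09 (SE; 95% interval 0.45 to 0.86, limma adjusted p = 0.000267). Without sulfate EIL1 averaged 68.9 ± 5.0 TPM in cdk8-1 and 41.6 ± 2.1 TPM in Col-0 (SD, n = 3 each), a ratio of 1.66 (log2 difference 0.71, limma adjusted p = 3.62e-06). Of tested genes, 89.7% had a lower log2 difference in that comparison. With sulfate it averaged 83.5 ± 3.8 TPM in cdk8-1 and 80.2 ± 2.9 TPM in Col-0. That log2 difference of 0.06 did not pass the test (95% interval -0.09 to 0.20, limma adjusted p = 0.61), and it took the other sign, -0.02, after median-of-ratios scaling.

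**Figure D1:**
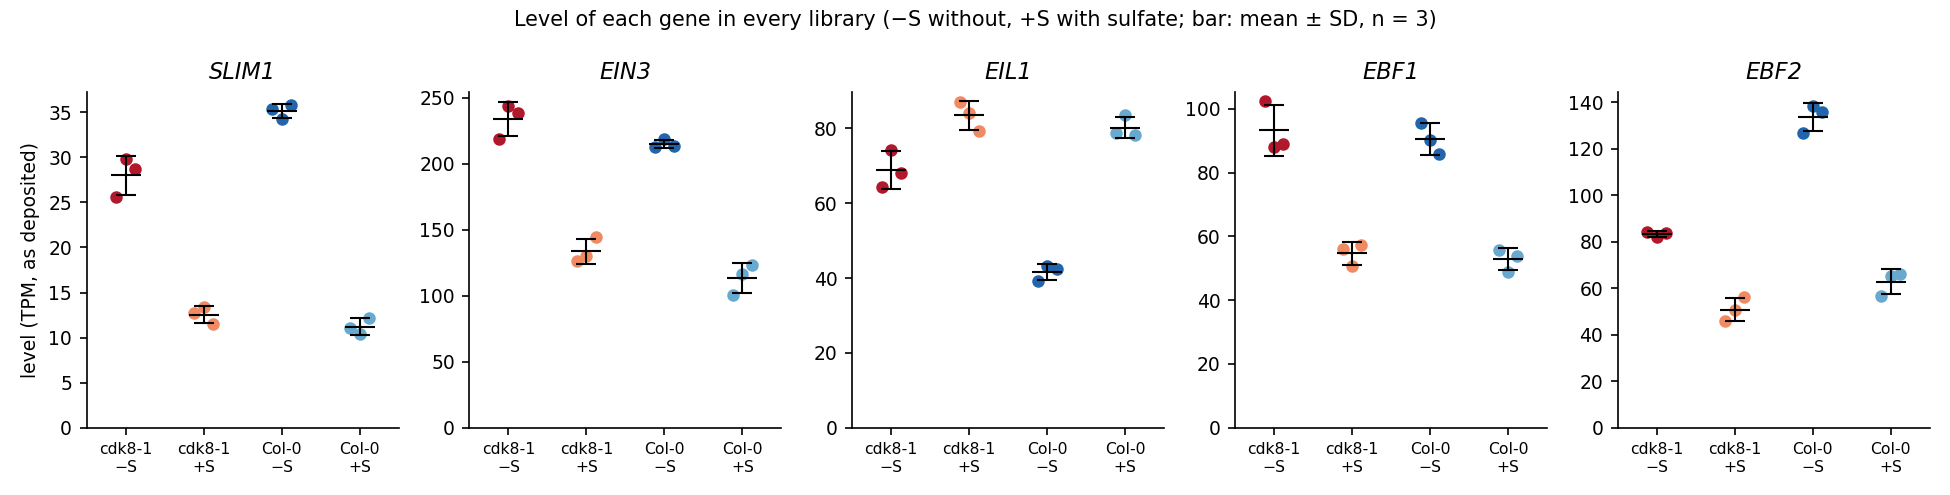
TPM (vertical axis, linear, from 0) of SLIM1, EIN3, EIL1, EBF1 and EBF2, 1 panel each, in the 4 groups. Points are the 3 libraries of a group and bars their mean with the SD; EIL1 is lowest in the 3 Col-0 libraries without sulfate, at 39.2 to 43.2 TPM, whereas EIN3 and EBF2 in those libraries lie above all of the libraries with sulfate.

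The remaining relatives of the family were near absent from these shoots and were not tested. EIL2 had at most 3 reads and EIL4 at most 1 read in any library. EIL5, singled out after its values were seen, had 1, 1 and 2 reads in cdk8-1 without sulfate, against 20, 18 and 31 reads in Col-0 without sulfate. These are 0.0565, 0.0464 and 0.111 TPM in cdk8-1, and 1.04, 0.975 and 1.29 TPM in Col-0. No read of EIL5 was recovered in any of the 6 libraries with sulfate.

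EBF1 rose without sulfate in both genotypes, and no difference between the genotypes passed the test. It had 103, 88.2 and 89.0 TPM in cdk8-1 without sulfate, against 56.1, 50.6 and 57.4 TPM in cdk8-1 with sulfate. In Col-0 it had 95.6, 90.3 and 85.7 TPM without sulfate, against 55.8, 49.0 and 53.8 TPM with sulfate. Libraries with and without sulfate were well apart, while the genotypes overlapped under both supplies. The ratio of mean TPM was 1.70 in cdk8-1 (log2 difference 0.76 ± 0.08 SE, limma adjusted p = 1.31e-06) and 1.71 in Col-0 (0.77 ± 0.08, adjusted p = 9.25e-07). The difference between these responses was -0.01, with a 95% interval of -0.25 to 0.23 (limma adjusted p = 0.962). The genotype differences were 0.04 without sulfate (95% interval -0.13 to 0.21, limma adjusted p = 0.716) and 0.05 with sulfate (95% interval -0.12 to 0.22, adjusted p = 0.727). After median-of-ratios scaling both genotype differences took the other sign, at -0.03 and -0.03, and still did not pass the test. The rise of EBF1 was smaller on that scale. It averaged 76.9 without sulfate against 62.4 with sulfate in cdk8-1, and 78.1 without sulfate against 63.7 with sulfate in Col-0.

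EBF2 rose without sulfate in both genotypes and was lower in cdk8-1 than in Col-0. It had 84.4, 81.9 and 83.8 TPM in cdk8-1 without sulfate, against 46.0, 50.4 and 56.1 TPM in cdk8-1 with sulfate. In Col-0 it had 127, 138 and 136 TPM without sulfate, against 56.6, 65.4 and 66.2 TPM with sulfate. The genotypes did not overlap under either supply, though with sulfate they were set apart by less than 1 TPM. The ratio of mean TPM was 1.64 in cdk8-1 (log2 difference 0.71 ± 0.08 SE, limma adjusted p = 2.59e-06) and 2.13 in Col-0 (1.08 ± 0.08, adjusted p = 3.10e-08). Without sulfate the ratio of cdk8-1 to Col-0 was 0.624 (log2 difference -0.67, limma adjusted p = 2.43e-05). Relative to the median gene, the rise of EBF2 under withdrawal was 0.26 in cdk8-1 and 0.62 in Col-0. After median-of-ratios scaling EBF2 averaged 68.7 without sulfate against 58.0 with sulfate in cdk8-1. In Col-0 it averaged 115 without sulfate against 75.5 with sulfate on that scale.

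With sulfate EBF2 averaged 50.8 ± 5.0 TPM in cdk8-1 and 62.7 ± 5.4 TPM in Col-0 (SD, n = 3 each), a log2 difference of -0.30 (limma adjusted p = 0.0252). This call was lost without cdk8-1 library 1 (-0.23, limma adjusted p = 0.0876) or 2 (-0.30, adjusted p = 0.0688) with sulfate. It was also lost without Col-0 library 2 (-0.27, limma adjusted p = 0.0809) or 3 (-0.26, adjusted p = 0.0749) with sulfate, and in a fit to these 6 libraries alone (adjusted p = 0.119). The cdk8-1 response minus the Col-0 response was -0.37 ± 0.11 (SE; 95% interval -0.62 to -0.13, limma adjusted p = 0.025). That call was lost when a single library was left out, namely cdk8-1 library 2 without sulfate (-0.36, limma adjusted p = 0.0551), cdk8-1 library 3 with sulfate (-0.30, adjusted p = 0.055), or Col-0 library 2 (-0.35, adjusted p = 0.0629) or 3 (-0.36, adjusted p = 0.0557) without sulfate. On the opposite strand of EBF2, the protein-coding gene AT5G25340 overlaps 439 of its exon bases and the antisense RNA AT5G03965 overlaps 187, together 21.4% of its exon length. These neighbours had 0 to 4 reads and 0 reads per library, but whether counting used the strand is not given in the sources used here, and the EBF2 level itself may be low.

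**Figure D2:**
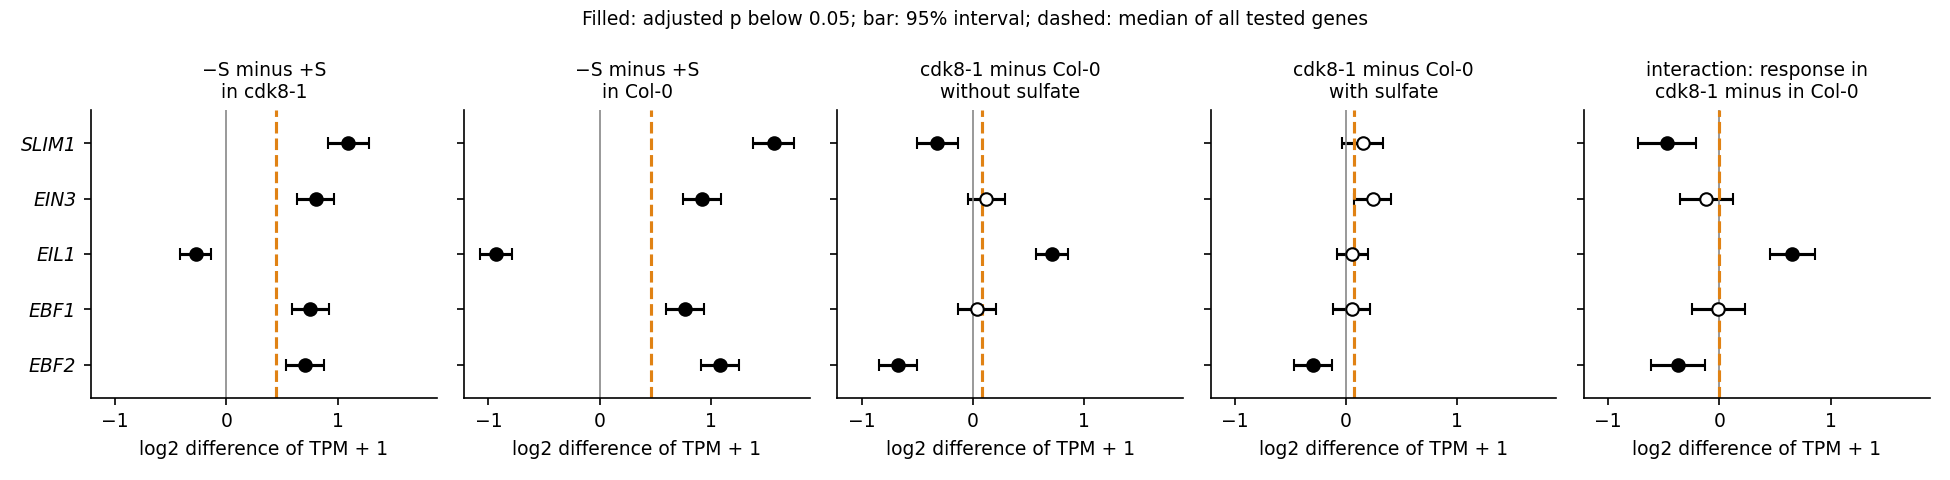
Log2 differences of the 5 regulators, on the log2(TPM + 1) scale, in the 4 comparisons and in the difference between the genotypes' responses. Bars are 95% intervals, filled points have a limma adjusted p under 0.05 and the dashed line is the median of all tested genes; EIL1 is the only one of the 5 to the negative side under withdrawal, at -0.28 in cdk8-1 and -0.93 in Col-0.

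The counts for the 5 have to be read against the whole table. All 5 passed the test for sulfate withdrawal in both genotypes, 4 higher and 1 lower, where 81.6% of tested genes were called in cdk8-1 and 84.9% in Col-0. By direction, 56.9% were called higher and 24.7% lower in cdk8-1, and 56.1% higher and 28.8% lower in Col-0. After median-of-ratios scaling the split was 38.5% higher and 37.3% lower in cdk8-1, and 41.3% higher and 39.6% lower in Col-0, and the 5 kept their calls and directions, against 75.8% of genes called in cdk8-1 and 80.9% in Col-0 in either direction. In both genotypes the libraries with and without sulfate did not overlap for any of the 5, as for 82.6% of tested genes in cdk8-1 and 85.5% in Col-0. A withdrawal call on 1 of the regulators is thus near the background of these shoots.

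Between genotypes without sulfate, 3 of the 5 were called (EIL1 higher, SLIM1 and EBF2 lower in cdk8-1), against 41.3% of tested genes. That background was 26.3% higher and 15.0% lower, or 21.4% higher and 18.4% lower (39.8% in all) after median-of-ratios scaling. As deposited, the genotypes' libraries did not overlap without sulfate for 4 of the 5, all but EBF1, against 57.1% of tested genes. With sulfate they did not overlap for EIN3 and EBF2, against 30.4%. After median-of-ratios scaling the EIN3 libraries of the genotypes overlapped under both supplies. With sulfate, 1 of the 5 (EBF2, lower in cdk8-1) was called, against 13.7% of tested genes, of which 8.85% were higher and 4.84% lower. After that scaling these were 4.38% higher and 6.51% lower. In the test of the difference between the responses, 3 of the 5 were called, EIL1 with a positive difference (14.8% of tested genes, or 15.2% after median-of-ratios scaling) and SLIM1 and EBF2 with a negative one (12.2%, or 11.7%), against 27.0% of tested genes in either direction.

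The responses of the table as a whole were also narrower in cdk8-1. Over all tested genes the log2 differences under withdrawal had an SD of 1.29 in cdk8-1 and 1.64 in Col-0. The shoot markers also differed, since their summed level without sulfate was 9219 to 12040 TPM in cdk8-1 and 3546 to 3708 TPM in Col-0. All 4 passed the test of the difference between the responses as higher in cdk8-1, and their part in the values of SLIM1, EIL1 and EBF2 was not tested.

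**Figure D3:**
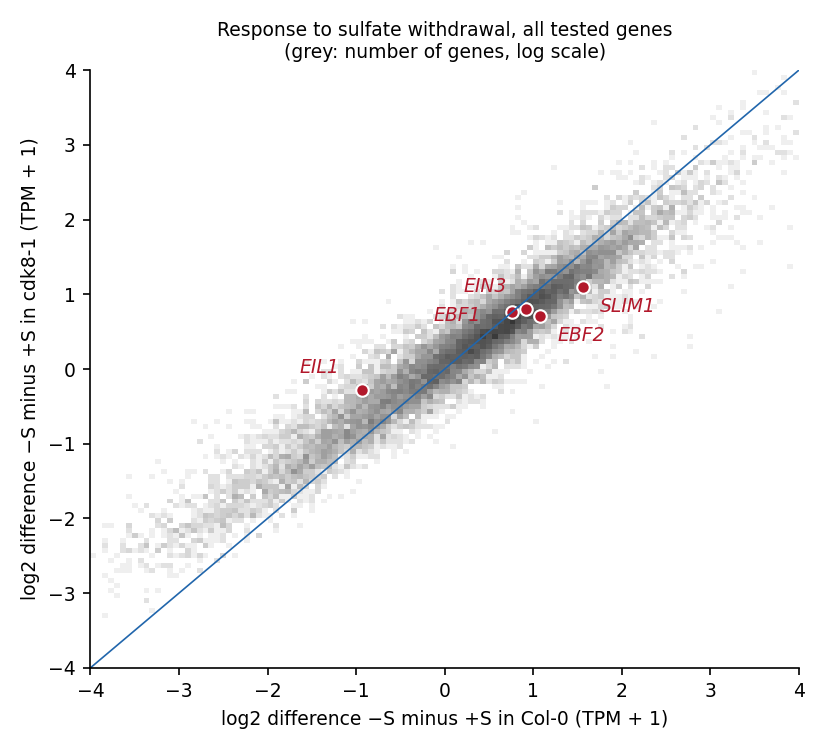
Log2 response to sulfate withdrawal in cdk8-1 (vertical axis) against that in Col-0 (horizontal axis), both as differences of log2(TPM + 1), with all 19127 tested genes as a grey density, the 5 regulators as labelled points and the line of equal response. SLIM1 and EBF2 lie below that line and EIL1 above it, while EBF1, at 0.76 in cdk8-1 and 0.77 in Col-0, lies on it; the axes are cut at -4 and 4.

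Ratios of 2 of the transcripts inside a library do not depend on the scaling of that library. The ratio of EIN3 to EIL1 was 3.41, 3.29 and 3.51 in cdk8-1 without sulfate, against 1.46, 1.55 and 1.82 in cdk8-1 with sulfate. It was 5.43, 5.07 and 5.04 in Col-0 without sulfate, against 1.28, 1.40 and 1.58 in Col-0 with sulfate. The balance of the pair therefore stood further toward EIN3 in every library without sulfate, and furthest in Col-0. These differences, and that between genotypes without sulfate, each had an exact two-sided permutation p of 0.1, which is the smallest that 3 libraries against 3 can give. With sulfate the genotypes overlapped (exact permutation p = 0.3).

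The ratio of SLIM1 to EIN3 was 0.117, 0.122 and 0.120 in cdk8-1 without sulfate, against 0.166, 0.157 and 0.168 in Col-0 without sulfate. With sulfate it was 0.101, 0.103 and 0.0796 in cdk8-1, against 0.110, 0.0894 and 0.0991 in Col-0. So SLIM1 transcript was at most 0.168 of that of EIN3, and its share was higher without sulfate in both genotypes. All these group differences had the smallest exact permutation p of 0.1 except that between genotypes with sulfate (0.7).

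The 2 F-box transcripts were at different balance in the 2 genotypes. The ratio of EBF2 to EBF1 was 0.822, 0.929 and 0.942 in cdk8-1 without sulfate, against 1.33, 1.53 and 1.58 in Col-0 without sulfate. It was 0.819, 0.997 and 0.977 in cdk8-1 with sulfate, against 1.01, 1.34 and 1.23 in Col-0 with sulfate. The ratio was lower in all 3 cdk8-1 libraries than in all 3 Col-0 libraries under each supply, with an exact permutation p of 0.1 for each. Which of the pair was higher in cdk8-1 depends on how EBF2 was counted: had its overlapped exon bases given no reads, the ratio per remaining base would have a geometric mean of 1.14 in cdk8-1 without sulfate (lowest library 1.05) and 1.18 in cdk8-1 with sulfate (lowest library 1.04), above 1 in place of below it. The difference between groups is the same either way, since the same factor applies to every library. Sulfate withdrawal left the ratio overlapping in cdk8-1 (exact permutation p = 0.6) and in Col-0 (0.2).

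**Figure D4:**
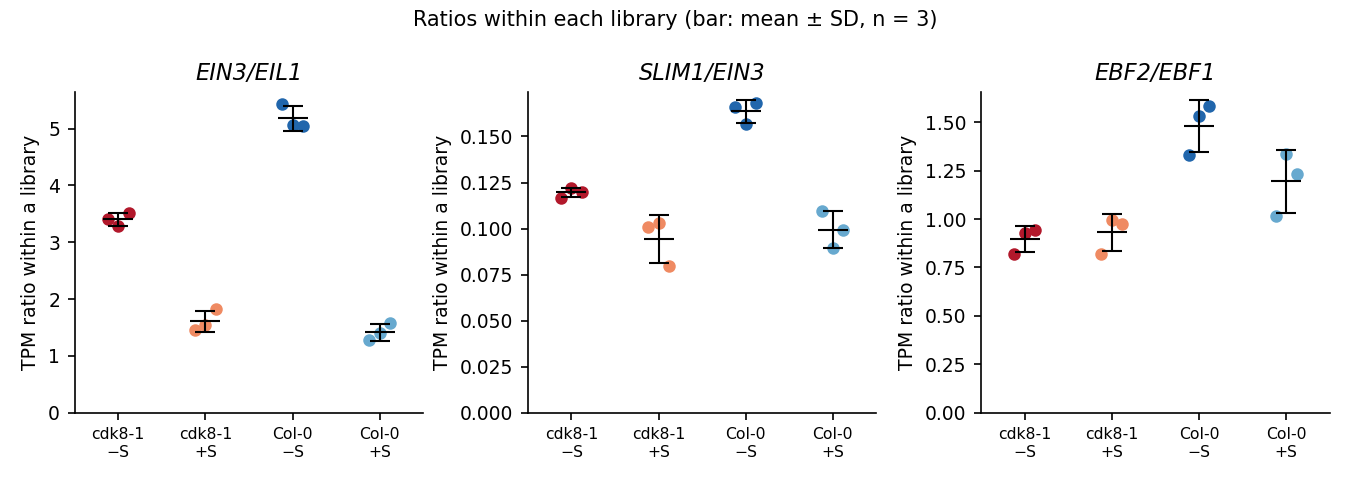
Ratios of TPM inside each library for EIN3 over EIL1, SLIM1 over EIN3 and EBF2 over EBF1, 1 panel each, in the 4 groups, with 1 point per library and bars for the mean and SD. EIN3 over EIL1 is 5.04 to 5.43 in Col-0 without sulfate, and EBF2 over EBF1 is lower in the cdk8-1 libraries (0.819 to 0.997) than in the Col-0 libraries of either supply (1.01 to 1.58); per exon base of EBF2 not overlapped, the cdk8-1 ratios are above 1.

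The order of the levels changed with both factors. With sulfate, EIN3 was followed by EIL1 in both genotypes, and SLIM1 was lowest. In cdk8-1 with sulfate, EBF1 (50.6 to 57.4 TPM) and EBF2 (46.0 to 56.1 TPM) overlapped and cannot be ordered, while in Col-0 with sulfate EBF2 (56.6 to 66.2 TPM) lay just above EBF1 (49.0 to 55.8 TPM) without overlap. In cdk8-1 without sulfate the order as deposited was EIN3, EBF1, EBF2, EIL1 and SLIM1, with no overlap between neighbours. In Col-0 without sulfate it was EIN3, EBF2, EBF1, EIL1 and SLIM1, and the lowest pair lay close, with EIL1 at 39.2 to 43.2 TPM and SLIM1 at 34.3 to 35.8 TPM. The place of EBF2 rests on its overlapped exons. Per exon base not overlapped it would be at 104 to 107 TPM in cdk8-1 without sulfate and 58.5 to 71.3 TPM in cdk8-1 with sulfate, in both cases above EBF1. It would be at 161 to 176 TPM in Col-0 without sulfate, with its place kept, and at 72.0 to 84.2 TPM in Col-0 with sulfate, where it would overlap EIL1 (78.2 to 83.5 TPM).

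Across the 12 libraries, which share their group differences and scaling, the levels of SLIM1, EIN3 and EBF1 on the log2(TPM + 1) scale followed each other with a Pearson r of 0.94 for each pair. High positive values are common in this table: 4597 tested genes had an r over 0.95 with SLIM1, 3297 with EIN3 and 3690 with EBF1, against 281 with EIL1 and 369 with EBF2. EBF2 and EIL1 had an r of -0.95, and 18926 of the 19127 tested genes had a higher r with EIL1. The pattern most like that of SLIM1 was that of AT5G15810 (r = 0.9960), followed by AT5G06360 and AT3G13224 (both 0.9958). VPS15 (0.9970), AT1G05380 (0.9954) and ATMIN7 (0.9953) were closest to EIN3. For EIL1 they were IQD30 (0.9921), AT1G05320 (0.9901) and PKP-BETA1 (0.9883). NAC036 (0.9932), maMYB (0.9917) and PABN1 (0.9913) were closest to EBF1, and EXL2 (0.9906), AT2G27500 (0.9868) and AT4G40040 (0.9866) to EBF2. IQD30, the closest to EIL1, averaged 17.4 TPM in cdk8-1 without sulfate, 23.0 TPM in cdk8-1 with sulfate, 9.90 TPM in Col-0 without sulfate and 21.9 TPM in Col-0 with sulfate.

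Upstream of EIN3 and EIL1 are the ethylene receptors and signalling genes. Of 11 tested without sulfate against with it, 8 were called higher and 0 lower in cdk8-1 (median log2 difference 0.71), where 56.9% of all tested genes were called higher and 24.7% lower (median 0.45). In Col-0, 9 were called higher and 0 lower (0.87), where 56.1% of all tested genes were higher and 28.8% lower (median 0.46). After median-of-ratios scaling these counts became 5 higher and 4 lower in cdk8-1, and 6 higher and 4 lower in Col-0, where the table had 38.5% higher and 37.3% lower in cdk8-1, and 41.3% higher and 39.6% lower in Col-0. EIN4, an ethylene receptor, rose under both scalings, with 28.1 ± 3.4 TPM without sulfate and 11.4 ± 0.44 TPM with sulfate in cdk8-1, and 26.9 ± 0.36 TPM without sulfate and 8.46 ± 0.16 TPM with sulfate in Col-0 (SD, n = 3 each). CTR1, the kinase that represses the pathway, was also called higher under both scalings, with log2 differences of 0.79 in cdk8-1 and 0.87 in Col-0. EIN2 was called higher as deposited, at 0.33 in cdk8-1 and 0.24 in Col-0, and lower after median-of-ratios scaling, at -0.13 in cdk8-1 and -0.24 in Col-0.

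Between genotypes 4 of these 11 were higher in cdk8-1 without sulfate (EIN2, RTE1, ERS1 and ETP2) and 2 with sulfate (EIN4 and ETP1), and 0 were lower. Of all tested genes, 26.3% were higher without sulfate and 8.85% with sulfate. After median-of-ratios scaling they were 3 and 1, against 21.4% and 4.38% of all tested genes. In the difference between the responses 1 of the 11 was called, with a negative sign. Over all tested genes 27.0% were called in either direction and 12.2% with a negative sign. The called gene was the receptor gene ETR1, at -0.41 (limma adjusted p = 0.0237). It averaged 35.6 ± 0.90 TPM without sulfate and 23.6 ± 1.9 TPM with sulfate in cdk8-1, and 39.4 ± 1.0 TPM without sulfate and 19.5 ± 2.2 TPM with sulfate in Col-0 (SD, n = 3 each).

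EBF1 and EBF2 work as part of an SCF ligase, of which 4 core genes were tested. CUL1, the cullin scaffold, averaged 210 ± 2.6 TPM in cdk8-1 without sulfate and 107 ± 0.48 TPM in cdk8-1 with sulfate, and 237 ± 1.8 TPM in Col-0 without sulfate and 93.5 ± 3.0 TPM in Col-0 with sulfate (SD, n = 3 each). The adaptor gene ASK1 and the RING gene RBX1 were likewise called higher without sulfate in both genotypes and under both scalings. The second adaptor, ASK2, had a log2 difference of -0.07 in cdk8-1 (limma adjusted p = 0.357) and -0.22 in Col-0 (adjusted p = 0.0131), and was called lower in both after median-of-ratios scaling. The response of CUL1 was smaller in cdk8-1, with a difference of -0.36 (limma adjusted p = 0.00103). With sulfate all 4 were called higher in cdk8-1 than in Col-0 as deposited, against 8.85% of all tested genes. Their median log2 difference was 0.22, against 0.07 for all tested genes, with limma adjusted p-values from 0.0146 to 0.0361. After median-of-ratios scaling 0 of the 4 were called, against 4.38% of all tested genes.

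Ethylene is made by ACC synthases (ACS), which form its precursor, and ACC oxidases (ACO), and both kinds held genes that differed between the genotypes. ACS2, an ACC synthase, had 8.09, 8.58 and 11.9 TPM in cdk8-1 without sulfate, against 59.1, 53.6 and 73.0 TPM in Col-0 without sulfate. With sulfate it averaged 0.176 TPM in cdk8-1 and 0.256 TPM in Col-0. Its rise was thus smaller in cdk8-1, with a difference between the responses of -2.48 (limma adjusted p = 2.56e-05). ACS7 also rose less in cdk8-1, with -1.46 (limma adjusted p = 0.0287). ACS4 was lower without sulfate in both genotypes, and its difference of 1.11 (limma adjusted p = 0.0145) is a smaller fall in cdk8-1. It averaged 0.10 TPM without sulfate against 0.780 TPM with sulfate in cdk8-1. In Col-0 it averaged 0.146 TPM without sulfate against 3.06 TPM with sulfate. Without sulfate ACS4 was near the floor, with at most 4 reads in a library. The other 8 synthesis genes tested did not pass the test of the difference between the responses. It called 27.0% of all tested genes (14.8% positive and 12.2% negative). The list is thus near that background. Of 11 synthesis genes tested out of 13, withdrawal called 6 higher and 4 lower in cdk8-1, and 5 higher and 5 lower in Col-0. The shares over all tested genes were 56.9% higher and 24.7% lower in cdk8-1, and 56.1% higher and 28.8% lower in Col-0. After median-of-ratios scaling the counts of synthesis genes were 4 higher and 4 lower in cdk8-1, and 4 higher and 5 lower in Col-0. The shares over all tested genes were then 38.5% higher and 37.3% lower in cdk8-1, and 41.3% higher and 39.6% lower in Col-0. Between genotypes 3 synthesis genes were higher and 3 lower in cdk8-1 without sulfate, and 1 higher and 2 lower with sulfate. Over all tested genes 26.3% were higher and 15.0% lower without sulfate, and 8.85% higher and 4.84% lower with sulfate. After median-of-ratios scaling 2 synthesis genes were higher and 3 lower without sulfate, and 0 higher and 2 lower with sulfate. Over all tested genes that scaling gave 21.4% higher and 18.4% lower without sulfate, and 4.38% higher and 6.51% lower with sulfate. Among the oxidases that turn the precursor into ethylene, ACO4 was higher in cdk8-1 without sulfate (log2 difference 0.42, limma adjusted p = 0.00684). It was also higher in cdk8-1 with sulfate (0.37, limma adjusted p = 0.0389), a call lost after median-of-ratios scaling. ACO5 was higher in cdk8-1 without sulfate (1.29, limma adjusted p = 0.00113), at means of 2.78 TPM in cdk8-1 and 0.483 TPM in Col-0. ACO3 fell without sulfate in both genotypes, by 0.99 in cdk8-1 and 1.59 in Col-0 on the log2 scale.

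Downstream of EIN3 and EIL1 are genes known to respond to ethylene. Of 12 tested out of 14, withdrawal called 6 higher and 2 lower in cdk8-1, and 5 higher and 4 lower in Col-0. These counts lie near the shares over all tested genes, 56.9% higher and 24.7% lower in cdk8-1, and 56.1% higher and 28.8% lower in Col-0. After median-of-ratios scaling they were 5 higher and 4 lower in cdk8-1, and 5 higher and 6 lower in Col-0. That scaling called 38.5% of all tested genes higher and 37.3% lower in cdk8-1, and 41.3% higher and 39.6% lower in Col-0. ERF1, a direct target of EIN3, averaged 2.52 ± 0.078 TPM in cdk8-1 without sulfate and 6.73 ± 1.2 TPM in Col-0 without sulfate (SD, n = 3 each), a log2 difference of -1.12 (limma adjusted p = 0.000947). ORE1, a regulator of leaf senescence, averaged 31.3 ± 2.4 TPM in cdk8-1 without sulfate and 70.4 ± 5.6 TPM in Col-0 without sulfate (-1.14, limma adjusted p = 0.000866). HEL, a pathogenesis-related gene, averaged 609 ± 95 TPM in cdk8-1 without sulfate and 607 ± 73 TPM in Col-0 without sulfate, a log2 difference of 0.00 that did not pass the test. The responses of 2 of the 12 differed between genotypes, with ORA59 at 1.37 (limma adjusted p = 0.02) and ERF1 at -0.90 (adjusted p = 0.0399). ORA59 averaged 8.5 ± 0.59 TPM without sulfate and 6.6 ± 3.0 TPM with sulfate in cdk8-1. In Col-0 it averaged 6.5 ± 1.4 TPM without sulfate and 14 ± 4.5 TPM with sulfate. Its genotype difference passed the test with sulfate (-1.01, limma adjusted p = 0.0303) but not without it (0.37, adjusted p = 0.313). The call on ERF1 was lost after median-of-ratios scaling. Over all tested genes 14.8% had a positive and 12.2% a negative difference between the responses, 27.0% in all. Without sulfate 0 of the 12 were called higher in cdk8-1 and 3 lower, and with sulfate also 0 higher and 3 lower. Over all tested genes 26.3% were higher and 15.0% lower without sulfate, and 8.85% higher and 4.84% lower with sulfate.

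The 16 sulfur genes linked to SLIM1 in the literature were all called higher without sulfate in both genotypes, against 56.9% of all tested genes in cdk8-1 and 56.1% in Col-0. Their median log2 differences were 4.12 in cdk8-1 and 4.56 in Col-0. Between genotypes without sulfate, 1 was higher and 5 lower in cdk8-1, against 26.3% higher and 15.0% lower over all tested genes. With sulfate 0 were higher and 2 lower, against 8.85% higher and 4.84% lower. SULTR1;1, a sulfate uptake transporter, averaged 11.7 ± 2.3 TPM in cdk8-1 without sulfate and 24.7 ± 5.7 TPM in Col-0 without sulfate (SD, n = 3 each). The vacuolar exporters SULTR4;1 and SULTR4;2 differed in opposite directions. SULTR4;1 averaged 127 ± 2.6 TPM in cdk8-1 without sulfate and 184 ± 9.1 TPM in Col-0 without sulfate, and its response was smaller in cdk8-1, with a difference of -0.53 (limma adjusted p = 0.000412). SULTR4;2 averaged 138 ± 0.52 TPM in cdk8-1 without sulfate and 101 ± 10 TPM in Col-0 without sulfate, and its response was larger in cdk8-1, with a difference of 0.66 (limma adjusted p = 0.00145). Over the list, 2 responses had a positive and 3 a negative difference between the genotypes, against 14.8% and 12.2% of all tested genes, and 11 did not pass the test.

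**Figure D5:**
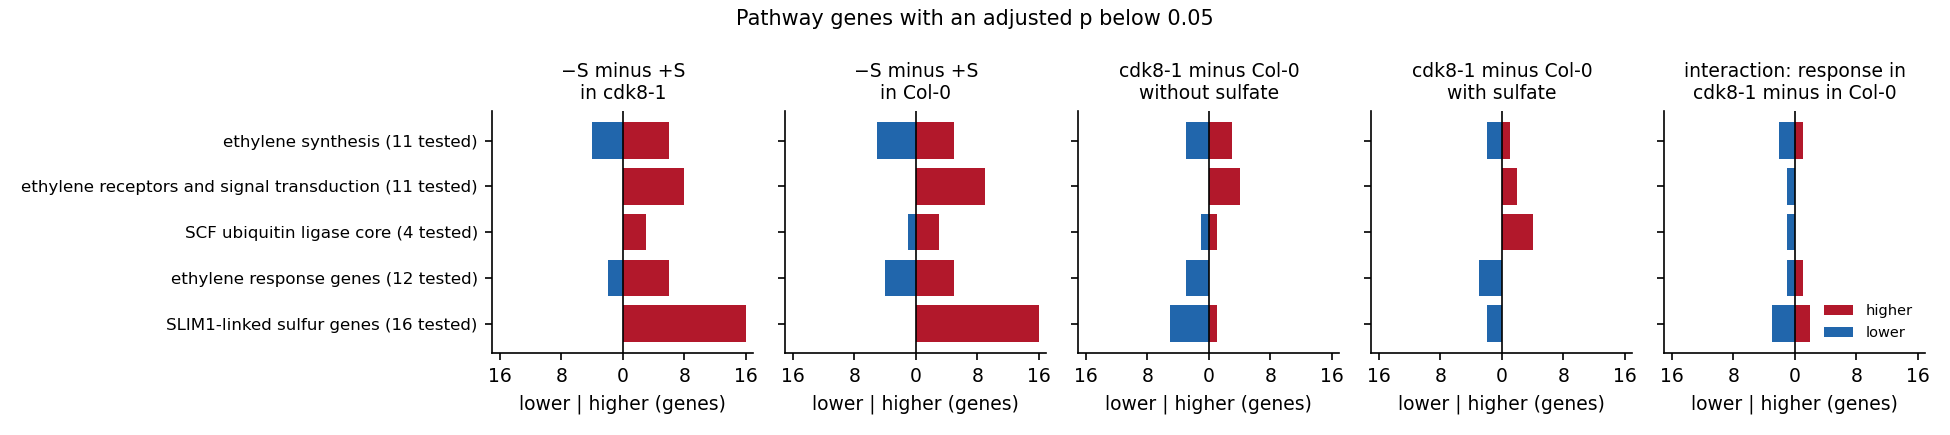
Numbers of genes called higher and lower (limma adjusted p under 0.05, TPM as deposited) in each gene list and comparison, with the number tested. The 16 sulfur genes linked to SLIM1 are all called higher under withdrawal in both genotypes, whereas the 12 ethylene response genes split into 6 higher and 2 lower in cdk8-1, and 5 higher and 4 lower in Col-0.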

How the data were processed

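Per the labels' protocols, strand-keeping libraries (NEBNext Ultra II Directional) were made from total shoot RNA (NucleoSpin RNA Plant); all 12 carry 1 batch label. The authors deposited TPM values in 1 table. The submitters' processing notes list DESeq2 1.46, featureCounts 2.0.8 and STAR 2.7.11b, without roles; the build is not given in the sources used here. The TPM sum was 1000000 in 11 libraries and 1004125.4 in Col-0 with sulfate, replicate 3.

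Here log2(TPM + 1) of loci with a mean of at least 1 TPM was fitted with limma 3.58.1 (R 4.3.3) to 4 group means over 12 libraries (8 residual degrees of freedom, trended empirical Bayes). Tests were two-sided, with Benjamini-Hochberg adjustment over 19127 loci and a threshold of 0.05. Ratios within libraries had exact permutation tests. The fit was also run on simulated counts in which few genes changed. Sulfate withdrawal called most genes here, so that run does not show how the fit behaves on these data. Whole reads were recovered from TPM and exon length (25759 of 25908 loci). Intervals between libraries are from limma.

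The regulators, lists and rules were chosen with earlier results of these data known. All 5 regulators and CDK8 were named, up to 4 genes per list and comparison with the smallest p, and the 3 tested genes closest to each regulator by Pearson r. CTR1 was named outside that rule for its role, and EIL2, EIL4 and EIL5 as untested relatives, after their values were seen. Alternatives were other scaling, pseudocount, filter, sample sets, a replicate block and limma voom on reads.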

Additional observations from a re-analysis of the deposited data

Results flagged for a closer look

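The response of SLIM1 to sulfate withdrawal differed between the genotypes, with the log2 response in cdk8-1 lower than that in Col-0 by a signed difference of -0.468 (limma adjusted p = 0.0119). EIL1 differed with the opposite sign, at 0.656 (limma adjusted p = 0.000267), since its fall was smaller in cdk8-1. EBF2 rose less in cdk8-1, at -0.374 (limma adjusted p = 0.025), and this call was lost when 1 of 4 single libraries was left out, with values and adjusted p-values in the report. Each was picked out by the test of the difference between the 2 responses, which called 27.0% of all tested genes.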

How the results depend on the processing

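Of 30 results each, all 30 kept their direction and side of the threshold with a pseudocount of 0.1 TPM, with no filter on low values, and with both with-sulfate libraries numbered 1 left out, an alternative chosen after seeing the data. In that last one the difference between responses was -0.449 for SLIM1 (limma adjusted p = 0.0366), 0.697 for EIL1 (adjusted p = 0.000919) and -0.371 for EBF2 (adjusted p = 0.0106). Median-of-ratios scaling reversed 4 uncalled values: EIL1 with sulfate (cdk8-1 against Col-0) became -0.020, EBF1 without sulfate -0.025, EBF1 with sulfate -0.028 and the difference between EBF1 responses 0.002. Limma voom on the recovered reads, also chosen after seeing the data, reversed 3 of these, at -0.020, -0.031 and -0.028, and called 14608, 15696, 8352, 2024 and 4808 of 19441 genes for withdrawal in cdk8-1, withdrawal in Col-0, genotype without sulfate, genotype with sulfate and the difference between responses. Fitting only the 6 libraries with sulfate, EBF2 lost its call (-0.299, limma adjusted p = 0.119) and 1183 genes were called, against 2618; the cause was not tested. With single libraries left out, the genes called with sulfate numbered 1744 to 2408, with 1744 when cdk8-1 with sulfate, replicate 3, was left out. The values ranged from -0.371 to -0.231 for EBF2 with sulfate, from -0.443 to -0.303 for its difference between responses, and from 0.155 to 0.299 for EIN3 with sulfate. EBF1 ranged from -0.03 to 0.079 without sulfate, from -0.004 to 0.103 with sulfate and from -0.079 to 0.044 for the difference between responses. Taking EBF2 per exon base not overlapped, also chosen after seeing the data, put the ratio of EBF2 to EBF1 (geometric mean) at 1.140 in cdk8-1 without sulfate (0.896 as deposited) and 1.180 in cdk8-1 with sulfate (0.927 as deposited). Every other difference for the 5 regulators kept its direction and side of the threshold.

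Same-numbered libraries correlated at -0.00 to 0.31 in their deviations from group means, and differently numbered ones at -0.24 to 0.12. Same-numbered values were not all over 0.1 in any comparison, so the numbers were not taken to pair the libraries. With the replicate block 15771, 16363, 8377, 3220 and 5718 genes were called in the 5 comparisons, each more than without it (15607, 16248, 7900, 2618 and 5171). EIN3 with sulfate (0.238) then passed the test (limma adjusted p = 0.0211). The block changed no other call on the 5 regulators. With 3 libraries a group, and SLIM1 at 303 to 1265 reads, small differences between genotypes may go undetected.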
